A study of Homo sapiens with 10 samples.

Results

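The genes described here make cholesterol, sense it and move it: 30 genes chosen by name for cholesterol synthesis, for the control of the transcription factor SREBP2, and for sterol uptake, transport and storage. Their values came from arrays of A549 cells, an established human lung adenocarcinoma line, and 28 of the 30 genes had at least 1 spot among the 18334 genes measured. GGPS1 and FDFT1 were not analysed here. The 28 genes were read by 50 spots, 1 spot for 11 genes and several for the other 17. By role, 7 of the measured genes belong to the early mevalonate and isoprenoid steps, 10 to the late sterol steps, 5 to SREBP2 and its control, and 6 to uptake, transport and esterification.

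RWV and monolayer culture were compared, with 5 biological replicates of each per the series description. The RWV group was grown in rotating wall vessels, slowly turning fluid-filled chambers that keep cells suspended under low shear. The Mono group was grown as a conventional monolayer. The labels give both groups the same medium, a Dulbecco type with 10% foetal calf serum and 4 mM glutamine, with no other treatment; serum brings lipoprotein cholesterol into the medium. The growth label names RWV culture for all 10 samples, so the groups follow the sample titles.

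Cells build cholesterol from acetyl-CoA through mevalonate and isoprenoid diphosphates, then fold squalene into a ring and trim it to cholesterol. When sterol in the endoplasmic reticulum is low, SCAP escorts SREBP2 to the Golgi, where it is cut and released to switch on these genes. When sterol is high, INSIG proteins hold the complex back, and oxysterols activate LXR receptors, which raise efflux genes and MYLIP. In alveolar type II cells, for which A549 is often used as a model, cholesterol is also a part of surfactant.

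On the arrays, 45220 spots were read, with median deposited intensities of 114 to 138 on RWV arrays and 122 to 184.5 on Mono arrays. Arrays numbered 1 to 3 had 5th percentiles of 8 to 16 in RWV and 15 to 20 in Mono, and those numbered 4 and 5 had 0 in RWV and 2 to 4 in Mono, so the fits of the 28 cholesterol genes, the medians of their 4 groups and the counts of calls were also computed within these 2 array sets. Markers, other lists and single spots were not. Of 8 proliferation genes, 8 fell in RWV, and their summed normalised intensity was 10654 to 30143 on RWV arrays and 77198 to 103371 on Mono arrays. Of the 5 epithelial markers, KRT19 rose and 4 did not pass the test, with sums of 58256 to 106996 in RWV and 36572 to 72416 in Mono. Of 11 leukocyte, fibroblast and endothelial markers, none passed (limma, 5 against 5 arrays), and their sums were 442.7 to 572.3 in RWV and 464.9 to 716.9 in Mono. Of 3 liver markers, 1 rose, ALB by 3.85 ± 0.54 on the log2 scale, and APOA2 and CYP7A1 were dim in both groups; the summed level was 269.2 to 2234 in RWV and 71 to 174.9 in Mono. The part of these marker changes in the results below was not tested.

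The cholesterol genes did not move as a block. At a Benjamini-Hochberg adjusted p below 0.05 over all genes (limma), 9 of the 28 fell in RWV, against 15.4% of all genes, and 3 rose, against 14.8% of all genes. The median log2 fold change, RWV over Mono, was -0.13 over the 28 genes and 0.00 over all 18334. All 5 RWV values lay below all 5 Mono values for 7 of the 28 genes, against 12.3% of all genes, and above them for 1, against 10.7%. The genes that fell were ACAT2, HMGCS1, MVK, FDPS, EBP, DHCR7, NSDHL, INSIG1 and LRP8, and those that rose were MYLIP, TM7SF2 and OSBPL6. In these whole-culture RNA samples, fewer cells expressing a gene and less RNA per cell cannot be told apart. Below, a gene's intensity is the mean over its spots of log2(quantile-normalised signal + 50), turned back to the linear scale. With several spots of unlike brightness it lies below their plain average. Arrays are given in the order 1 to 5, and ± after a log2 fold change is its standard error with n = 5 arrays in each group.

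**Figure D1:**
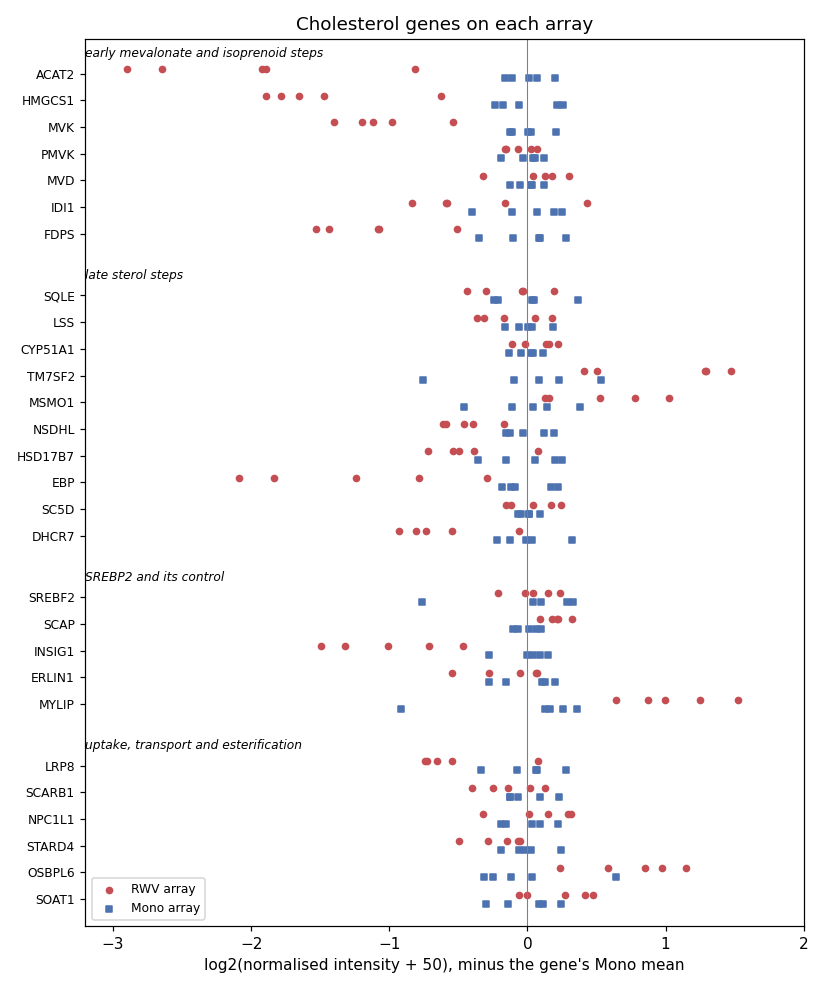
Level of each of the 28 cholesterol genes on each array, as log2(normalised intensity + 50) minus the gene's Mono mean, with RWV arrays as red circles above Mono arrays as blue squares. ACAT2 has the largest fall, and all 6 genes of the last group have overlapping points.

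The early mevalonate steps split between genes at the entry of the pathway together with FDPS, which fell, and the steps between them, which did not pass the test. In this group 4 of 7 genes fell, against 15.4% of all genes, and none rose, against 14.8%. The median log2 fold change was -1.05. ACAT2, the cytosolic thiolase that joins 2 acetyl-CoA units, had intensities of 508.7, 1076, 2328, 1049 and 618 in RWV, against 4730, 3684, 3806, 4324 and 4149 in Mono. Its RWV values varied widely, with RWV 3 at the top, and all lay below the lowest Mono value. ACAT2 fell by 2.03 ± 0.31 on the log2 scale, the largest fall among the 28 genes (limma adjusted p = 0.00056). HMGCS1, the HMG-CoA synthase that makes the precursor of mevalonate, had 508, 469.3, 1200, 560 and 642.6 in RWV, against 2187, 1588, 1649, 2246 and 1795 in Mono. The groups did not overlap, and RWV 3 again stood above the other RWV arrays. HMGCS1 fell by 1.49 ± 0.22 (limma adjusted p = 0.00041).

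MVK, the mevalonate kinase, had 710.6, 965.7, 1330, 875.7 and 824 in RWV, against 2262, 1961, 1996, 1811 and 1786 in Mono, and fell by 1.05 ± 0.15 (limma adjusted p = 0.00034). FDPS, which assembles farnesyl diphosphate, the branch point between sterols and other isoprenoids, had 7504, 10296, 15322, 10251 and 8007 in RWV, against 26468, 20290, 23205, 17069 and 23078 in Mono. It fell by 1.13 ± 0.19 (limma adjusted p = 0.00093). For both genes the groups were separate, and RWV 3 was the RWV array nearest to Mono. The spots of ACAT2, HMGCS1 and MVK had the same direction: each gene had 2 spots, and each spot passed by itself, with log2 fold changes of -1.95 and -2.12 for ACAT2, -1.22 and -1.75 for HMGCS1 and -1.03 and -1.07 for MVK. Of the 50 spots of the cholesterol genes, 15 passed as lower and 6 as higher, and over all spots 28.6% passed in either direction.

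The kinase, decarboxylase and isomerase that follow MVK did not pass. PMVK, which adds the next phosphate, had 4867 to 5722 in RWV and 4787 to 5927 in Mono, a log2 fold change of -0.06 ± 0.10 (limma adjusted p = 0.70). MVD, which decarboxylates the product to isopentenyl diphosphate, had a log2 fold change of 0.07 ± 0.12 (limma adjusted p = 0.75). One of its 2 spots read 62143 to 65472 as deposited on every array, at the top of the scale, so a difference there could not be read; the other spot alone gave 0.09 ± 0.17. Spots at the top of the scale were also recorded unequally, since 89.3% to 93.1% of spots at 60000 or above lay at 65293 or higher on RWV arrays, against 5.84% to 8.45% on Mono arrays. IDI1, the isomerase, had 3486, 4694, 7106, 2930 and 3503 in RWV, against 6260, 4862, 6017, 3977 and 5532 in Mono. Its RWV 3 value was above every Mono value, and the log2 fold change was -0.35 ± 0.22 (limma adjusted p = 0.28). IDI1 passed in only 1 of 10 fits that left out 1 array, at -0.54 without RWV 3 (adjusted p = 0.031).

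The promoter windows of HMGCS1, MVK and FDPS are printed because these are the early genes that fell and have a RefSeq window, 250 bases before to 50 after the gene start in GRCh38.p14. Capitals mark CCAAT boxes, read as CCAAT or its reverse complement ATTGG, the site of the factor NF-Y that works beside SREBP at many sterol genes. The windows are chr5:43313363-43313662 on the minus strand for HMGCS1, chr12:109573544-109573843 on the plus strand for MVK and chr1:155308616-155308915 on the plus strand for FDPS. There were 2 CCAAT boxes in HMGCS1, beginning at positions -155 and -100 relative to the start, 5 in MVK between -210 and -46, and 3 in FDPS at -176, -122 and -51.
HMGCS1: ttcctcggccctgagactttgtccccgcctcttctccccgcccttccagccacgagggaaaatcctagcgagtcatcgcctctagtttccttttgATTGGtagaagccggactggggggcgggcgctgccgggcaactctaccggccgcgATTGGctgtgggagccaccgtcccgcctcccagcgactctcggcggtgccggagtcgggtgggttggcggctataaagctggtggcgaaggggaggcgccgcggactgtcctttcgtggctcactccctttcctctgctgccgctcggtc
MVK: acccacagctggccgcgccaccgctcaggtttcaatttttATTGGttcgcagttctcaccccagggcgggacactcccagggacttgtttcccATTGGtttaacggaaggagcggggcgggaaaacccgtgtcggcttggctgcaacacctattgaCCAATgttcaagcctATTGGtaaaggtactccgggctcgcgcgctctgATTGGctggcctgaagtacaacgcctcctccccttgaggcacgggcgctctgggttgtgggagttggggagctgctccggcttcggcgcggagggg
FDPS: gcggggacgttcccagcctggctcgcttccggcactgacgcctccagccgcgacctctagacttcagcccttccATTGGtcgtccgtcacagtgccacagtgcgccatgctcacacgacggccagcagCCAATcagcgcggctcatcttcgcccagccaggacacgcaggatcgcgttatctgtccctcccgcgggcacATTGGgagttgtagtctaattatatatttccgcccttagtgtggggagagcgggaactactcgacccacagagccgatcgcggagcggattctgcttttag

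The late sterol steps showed no common direction. Of 10 measured genes 3 fell, against 15.4% of all genes, 1 rose, against 14.8%, and 6 did not pass. The median log2 fold change was -0.12. EBP, the sterol isomerase that shifts a ring double bond, had 4815, 11915, 16811, 8692 and 5742 in RWV, against 24089, 19342, 18956, 23196 and 18169 in Mono. All RWV values were below the Mono values, and RWV 3 came closest. EBP fell by 1.25 ± 0.29 (limma adjusted p = 0.0066). DHCR7, the reductase of the final step, had 9818, 12805, 17901, 11257 and 10695 in RWV, against 23466, 17107, 19175, 16066 and 18564 in Mono. The groups overlapped only through RWV 3, and DHCR7 fell by 0.61 ± 0.17 (limma adjusted p = 0.014). NSDHL, which helps remove the methyl groups of the ring, had 801.8, 789.5, 1090, 928.5 and 886.7 in RWV, against 1344, 1209, 1420, 1102 and 1127 in Mono, and fell by 0.45 ± 0.12 (limma adjusted p = 0.012). Its groups were separate by a narrow margin, between RWV 3 and Mono 4.

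TM7SF2 went the other way. This sterol reductase acts on the same ring before NSDHL, and the lamin B receptor is known to share its activity. TM7SF2 had 1818, 3620, 3164, 3184 and 1698 in RWV, against 1184, 1350, 1857, 731.7 and 1494 in Mono, with RWV 1 and RWV 5 inside the range set by Mono 3. It rose by 0.99 ± 0.27 (limma adjusted p = 0.014), and both of its spots rose, by 1.05 and 0.94. MSMO1, the methylsterol oxidase, had 507.7, 738.4, 615.7, 382.5 and 373.5 in RWV, against 350.3, 379, 456.4, 231.9 and 310.1 in Mono. Its log2 fold change of 0.52 ± 0.20 did not pass (limma adjusted p = 0.070). MSMO1 passed in 5 of 22 alternative fits, among them array set as a block (adjusted p = 0.0092). Without normalization between arrays it was at 0.30 and did not pass (adjusted p = 0.28). Without normalization between arrays TM7SF2 was at 0.75 with an adjusted p of 0.050, just outside the threshold.

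HSD17B7, the reductase that follows NSDHL, had 469.2, 509.3, 720.3, 453.2 and 393.6 in RWV, against 791.3, 608.2, 818.4, 521.6 and 711.2 in Mono. The log2 fold change was -0.41 ± 0.16 and did not pass (limma adjusted p = 0.078). HSD17B7 passed in only 2 of 10 fits that left out 1 array. These were at -0.54 without RWV 3 (adjusted p = 0.014) and -0.50 without Mono 4 (adjusted p = 0.036). With array set as a block HSD17B7 passed at -0.41 (adjusted p = 0.049). SQLE, the squalene epoxidase and a control point of the pathway, had 4984 to 7732 in RWV and 5720 to 8740 in Mono, a log2 fold change of -0.12 ± 0.15 (limma adjusted p = 0.60). CYP51A1, the lanosterol demethylase, had 2023 to 2558 in RWV and 1985 to 2373 in Mono (0.08 ± 0.10), and SC5D, the desaturase before DHCR7, had 241.6 to 335.7 in RWV and 260.5 to 297.1 in Mono (0.04 ± 0.10). The groups overlapped for these 3 genes.

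LSS, which closes the ring of squalene epoxide to lanosterol, depended on the spot. Over its 4 spots the log2 fold change was -0.12 ± 0.12 (limma adjusted p = 0.52). Its 2 bright spots gave -0.51 ± 0.16 (limma adjusted p = 0.036 over all spots) and -0.51 ± 0.19 (adjusted p = 0.066). On the first of them the intensity was 1020, 1334, 1829, 1190 and 988.3 in RWV, against 2060, 1505, 1809, 1814 and 1790 in Mono, with RWV 3 inside the Mono range. The remaining 2 spots, annotated to another transcript record, were near the dim level of 100, at means of 119.2 and 109 in RWV and 96.2 and 76.55 in Mono, with 0.20 ± 0.14 and 0.32 ± 0.12, neither past the test. On the second of these all RWV values were above all Mono values.

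**Figure D2:**
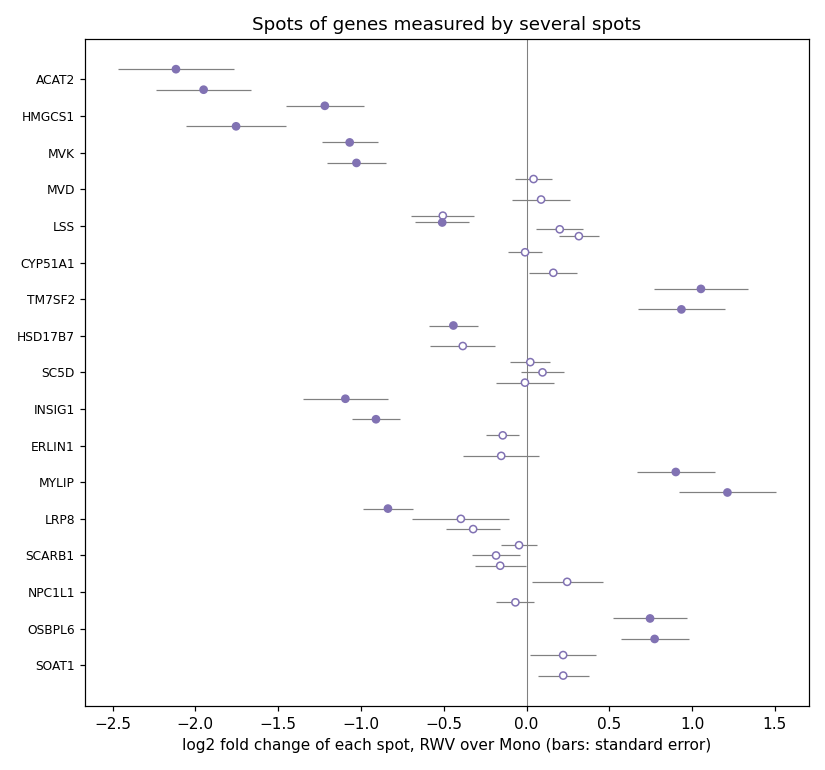
Log2 fold change of each spot, RWV over Mono, for the 17 cholesterol genes with several spots, with standard error bars, filled where the spot passed at an adjusted p below 0.05 over all spots. Spots of a gene run from bright at the top to dim at the bottom; those of LSS lie on both sides of 0, and both spots of ACAT2, HMGCS1, MVK, TM7SF2, INSIG1, MYLIP and OSBPL6 are filled.

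Among SREBP2 and its controls, the factor itself and its escort did not pass, while a sterol-responsive retention protein fell and a receptor-degrading ligase rose. In this group 1 of 5 genes fell and 1 rose, shares near those of all genes (15.4% lower and 14.8% higher). The median log2 fold change of 0.04 changed sign with the processing. SREBF2, the gene of SREBP2, had 2581, 3091, 2912, 2689 and 2247 in RWV, against 2698, 3209, 3302, 1524 and 2808 in Mono, a log2 fold change of 0.04 ± 0.19 (limma adjusted p = 0.91). Mono 4 was the lowest of all 10 arrays, and the other Mono values overlapped the RWV values. SCAP had 6672 to 7836 in RWV and 5807 to 6704 in Mono, a log2 fold change of 0.21 ± 0.09 (limma adjusted p = 0.11). ERLIN1, a cholesterol-binding protein of the endoplasmic reticulum that restrains SREBP activation, had 1675 to 2600 in RWV and 2031 to 2841 in Mono (-0.15 ± 0.15, limma adjusted p = 0.51).

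INSIG1, which holds SCAP in the endoplasmic reticulum and is itself a target of SREBP, had 251.7, 470.2, 566.7, 371.8 and 290.5 in RWV, against 895.3, 824.5, 799.9, 650.8 and 857.9 in Mono. Every RWV value was below every Mono value, with RWV 3 and Mono 4 the nearest pair. INSIG1 fell by 1.00 ± 0.19 (limma adjusted p = 0.0017), and its 2 spots were at -1.09 and -0.91, both past the test. MYLIP, also called IDOL, is an LXR-induced ubiquitin ligase that marks receptors of the LDL receptor family for destruction. It had 990.3, 809.6, 672.2, 515.5 and 610.9 in RWV, against 355.8, 345.7, 382.8, 142 and 414 in Mono. This was the only one of the 28 genes with all RWV values above all Mono values, and Mono 4 lay far below the other Mono arrays. MYLIP rose by 1.06 ± 0.24 (limma adjusted p = 0.0060), and its 2 spots rose by 1.21 and 0.90.

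The RefSeq windows of INSIG1 and SREBF2 are shown side by side because INSIG1 fell while SREBF2 did not pass, and each holds a motif that SREBP can bind, marked in capitals together with the CCAAT boxes. INSIG1 lies at chr7:155297628-155297927 on the plus strand and has an E-box, CACGTG, beginning at position -55 and a CCAAT box at -170. SREBF2 lies at chr22:41832855-41833154 on the plus strand and has a sterol regulatory element, searched as TCACNCCAC, at position -133 and a CCAAT box at -106. The INSIG1 window has no match to that element, and an E-box was in 9.08% of the windows of genes on the arrays.
INSIG1: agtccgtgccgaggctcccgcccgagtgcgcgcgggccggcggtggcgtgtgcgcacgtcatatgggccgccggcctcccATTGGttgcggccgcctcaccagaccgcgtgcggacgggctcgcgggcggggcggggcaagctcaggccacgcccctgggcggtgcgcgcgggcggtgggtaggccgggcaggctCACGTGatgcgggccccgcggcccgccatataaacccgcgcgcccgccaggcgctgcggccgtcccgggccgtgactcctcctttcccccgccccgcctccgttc
SREBF2: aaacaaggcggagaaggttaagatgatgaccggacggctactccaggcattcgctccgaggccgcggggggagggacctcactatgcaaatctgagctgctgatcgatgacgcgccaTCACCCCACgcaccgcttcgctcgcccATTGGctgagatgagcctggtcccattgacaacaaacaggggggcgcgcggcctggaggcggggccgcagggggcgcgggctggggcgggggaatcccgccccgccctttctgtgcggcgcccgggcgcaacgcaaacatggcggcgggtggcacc

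Over the 24 measured genes with a window, motifs were counted against all promoter windows of the same length. A CCAAT box was in 18 of 24 windows (75%), against 36.4% of the 14411 genes on the arrays with a window and 35.7% of all 27305 genes with one. It was in 7 of the 8 genes with a window that fell, in 2 of 3 that rose and in 9 of 13 that did not pass. A GC box, GGGCGG, the site of Sp1, was in 22 of 24 windows, against 60.6% of the genes on the arrays. The E-box was in 4 of 24, against 9.08%: INSIG1, LSS, SC5D and SCAP. The sterol regulatory element was in 1 of 24, SREBF2, against 1.12%. Both strands were searched in the first window listed for each gene, and no 2 different motifs overlapped. A match describes the letters only, and sterol elements of other spellings were not searched.

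Of the genes for uptake, transport and esterification, 1 of 6 fell and 1 rose, shares near those of all genes (15.4% lower and 14.8% higher). The median log2 fold change was -0.02. LRP8, the apolipoprotein E receptor 2 and a known target of MYLIP, had 636, 549.3, 1004, 585.6 and 555.8 in RWV, against 1166, 997.1, 901.8, 742.1 and 998.4 in Mono. The RWV 3 value was higher than 4 of the 5 Mono values, and the other RWV values were below all of Mono. LRP8 fell by 0.52 ± 0.17 (limma adjusted p = 0.036), a call that was lost in 8 of 10 fits that left out 1 array (adjusted p 0.051 to 0.094), all but those without RWV 3 or Mono 4. Its brightest spot fell by 0.84 ± 0.15, while the other two spots were at -0.40 ± 0.29 and -0.32 ± 0.16 and did not pass. OSBPL6, an oxysterol-binding protein relative that carries sterol between membranes, had 631.8, 468.6, 358.6, 573.6 and 718.9 in RWV, against 241.7, 229, 305.1, 490 and 269.2 in Mono. Mono 4 alone reached into the RWV range, and OSBPL6 rose by 0.76 ± 0.21 (limma adjusted p = 0.016). Without normalization between arrays its log2 fold change was 0.54 and did not pass (adjusted p = 0.23).

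The remaining 4 transport genes overlapped between the groups. SCARB1, the HDL receptor, had 1854 to 2686 in RWV and 2249 to 2896 in Mono (-0.13 ± 0.12, limma adjusted p = 0.49). One of its 3 spots was bright, at 42056 to 62756 as deposited, and without it the log2 fold change was -0.17 ± 0.14. STARD4, a soluble sterol carrier and SREBP2 target, had 192.1 to 278.7 in RWV and 248.5 to 353.4 in Mono (-0.21 ± 0.12, limma adjusted p = 0.22). SOAT1, which esterifies cholesterol for storage, had 466.4 to 701.5 in RWV and 388.8 to 587.7 in Mono (0.22 ± 0.14, limma adjusted p = 0.29). NPC1L1, the intestinal cholesterol importer, stayed near the dim level too, with 55 to 113.3 in RWV and 64.9 to 103.1 in Mono (0.09 ± 0.14, limma adjusted p = 0.69).

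**Figure D3:**
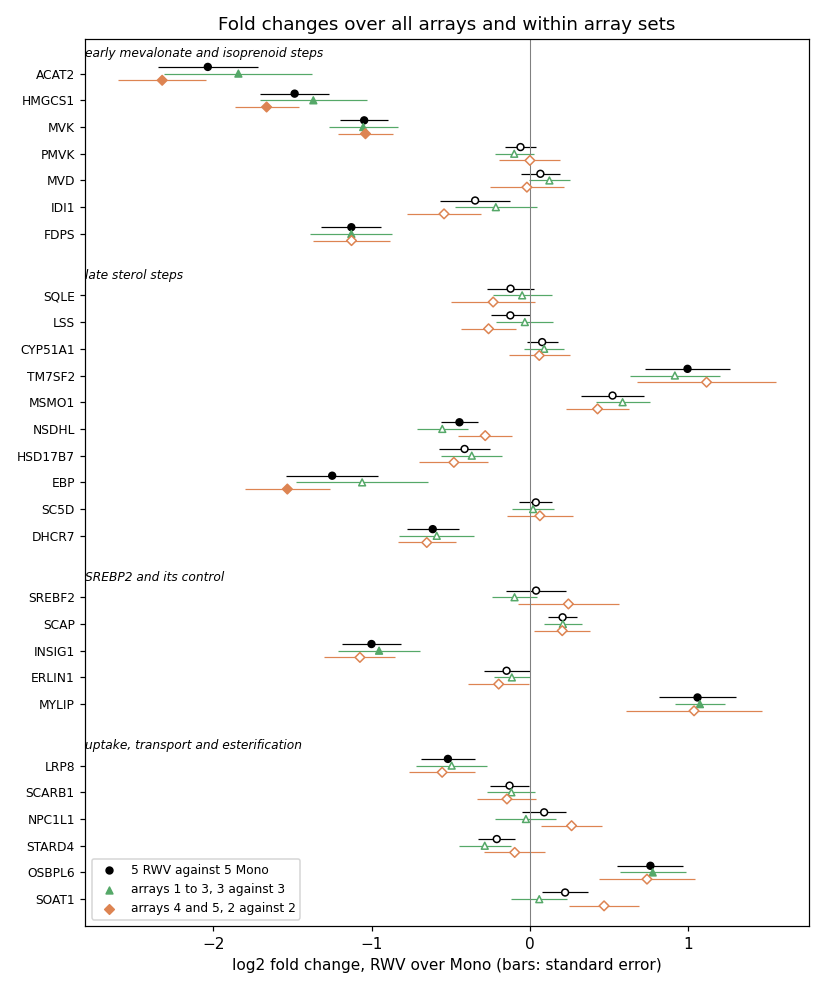
Log2 fold change, RWV over Mono, of each cholesterol gene over all arrays (black), within arrays 1 to 3 (green) and within arrays 4 and 5 (orange), with standard error bars, filled where the adjusted p was below 0.05. The 12 genes past the test over all arrays keep their direction in both array sets, which are parts of those same arrays.

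The fits within the 2 array sets describe parts of the same data. The 12 genes were called on all arrays together, so the same sign within each part was largely fixed by that choice. All 12 had the same sign within arrays 1 to 3, where 7 passed, and within arrays 4 and 5, where 4 passed with 2 against 2 arrays. ACAT2, HMGCS1 and MVK passed in both, at -1.84 and -2.32 for ACAT2, -1.37 and -1.66 for HMGCS1, and -1.05 and -1.04 for MVK. EBP passed in the second set only, at -1.53, and was at -1.06 in the first (adjusted p = 0.13). MYLIP was at 1.07 and 1.03 and INSIG1 at -0.95 and -1.07, and both passed in the first set only. FDPS and OSBPL6 also passed in the first set only. TM7SF2, NSDHL, DHCR7 and LRP8 passed in neither set, with NSDHL at -0.55 and -0.28. These differences between sets in what passed were not tested.

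RWV 3 was the mildest RWV array for the early synthesis genes. The mean over the 7 early genes, relative to the Mono mean, was -1.19, -0.82, -0.26, -0.92 and -1.12 on RWV arrays 1 to 5, against values between -0.10 and 0.19 on Mono arrays. For the 10 late genes it was -0.39, 0.03, 0.23, -0.22 and -0.33 on RWV arrays and between -0.22 and 0.14 on Mono arrays. There the groups overlapped, RWV 3 lay above every Mono array, and RWV 2 was nearest to the Mono mean. The 8 proliferation genes showed the same outlying array, with -4.17, -3.35, -1.52, -3.03 and -3.99 on RWV arrays, against -0.27 to 0.26 on Mono arrays. The part of proliferation in the changes of the cholesterol genes was not tested. On Mono 4 the SREBP2 group was low, at -0.44, against 0.06 to 0.16 on the other Mono arrays and -0.16 to 0.19 on RWV arrays.

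**Figure D4:**
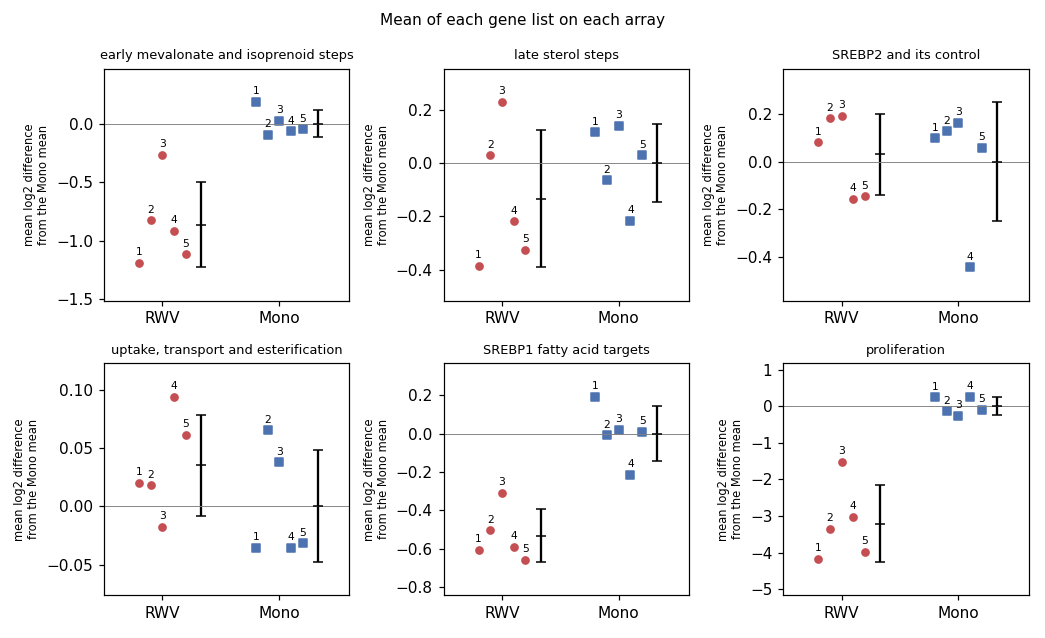
Mean log2 difference from the Mono mean for the genes of 6 lists on each array, RWV left of Mono, with the array number above each point and mean ± SD over 5 arrays as black bars; the vertical scales differ between panels. RWV 3 is the RWV array nearest to Mono in the early mevalonate, fatty acid and proliferation panels.

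Other genes of sterol synthesis and SREBP processing were mixed, with 4 of 11 measured genes higher, against 14.8% of all genes, and 3 lower, against 15.4%. INSIG2, the relative of INSIG1 that is not an SREBP target in most cells, rose by 1.19 ± 0.21 (limma adjusted p = 0.0014), with means of 1520 in RWV and 640.3 in Mono. INSIG1 and INSIG2 thus had fold changes of opposite sign, each past the test. MBTPS1, the Golgi protease that makes the first cut in SREBP, rose by 0.62 ± 0.14, and RNF139, a ubiquitin ligase of the endoplasmic reticulum that binds INSIG, rose by 0.55 ± 0.12. ACAT1, the mitochondrial thiolase, fell by 0.51 ± 0.14, which set beside ACAT2 was the same direction with a smaller estimate. For these 3 the limma adjusted p reached no higher than 0.015.

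Among other genes of cholesterol uptake, storage and efflux, 3 of 15 measured rose and 1 fell, shares near those of all genes (14.8% higher and 15.4% lower). ABCG1, an LXR-induced cholesterol exporter, rose by 1.80 ± 0.41 (limma adjusted p = 0.0058), with 1136, 745.8, 244.3, 1023 and 779 in RWV, against 122, 243.2, 312.6, 48.75 and 214.6 in Mono. RWV 3 was inside the Mono range. ABCA1, the other well-known LXR-induced exporter, averaged 62.7 in RWV and 87.7 in Mono, under 100 in both groups, and was at -0.29 ± 0.11 (limma adjusted p = 0.072). The lipoprotein receptors LRP1 and VLDLR rose by 1.00 ± 0.16 and 0.91 ± 0.24, and NPC1, which releases cholesterol from lysosomes, fell by 0.93 ± 0.22. VLDLR, like LRP8, is a known target of MYLIP, and the signs of the RNA of these receptors differed. MYLIP acts on the receptor proteins, which the arrays did not measure. The LXR gene NR1H3 was at 0.09 ± 0.23 (limma adjusted p = 0.82).

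SREBP1 targets of fatty acid synthesis were lower where they passed. Of 13 genes 6 fell, against 15.4% of all genes, and none rose, against 14.8%, and the median log2 fold change was -0.54. The desaturase SCD fell by 1.19 ± 0.16, the fatty acid synthase FASN by 1.17 ± 0.23, FADS2 by 0.98 ± 0.24 and PNPLA3 by 0.84 ± 0.16 (limma adjusted p at most 0.0082). The SREBP1 gene itself, SREBF1, was at -0.27 ± 0.12 and did not pass (limma adjusted p = 0.11).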

How the data were processed

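Cy3-labelled total RNA from 5 RWV and 5 Mono cultures was hybridised to one-colour arrays, per the labels. The values the authors deposited are linear spot intensities, background apparently subtracted because some lie below 0; scanner and extraction software: not given in the sources used here. Of 45220 spots, 31332 carry 1 gene symbol in the platform annotation, matched by gene number to RefSeq (GRCh38.p14); members were found by current symbol through it, so that SOAT1 was not mixed up with the ACAT1 gene that shares an old name. The intensities of named spots were quantile normalised (limma 3.58.1, R 4.3.3), set to 0 where negative, given a pseudocount of 50 and logged (log2), which understates changes of dim genes. Spots of a gene were averaged, and lmFit and eBayes compared the groups, two-sided, with Benjamini-Hochberg adjustment over 18334 genes. The code was tested on simulated data. Promoter windows were searched as spelled out.

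The design had no replicate block. Alternatives were other normalizations, pseudocounts of 16 and 200, a filter on genes under 100, the brightest spot, no spots at or above 60000, blocks and left-out arrays. The fit of single spots was added after the data were examined. The E-box was not among the planned motifs. No more than 1.46% of spots had equal values on any 2 arrays. The number of arrays limits the precision. Members and lists were chosen with earlier results of these data known, so no list was tested. All members are named, and of each further list up to 4 genes past the threshold with the largest change; SREBF1, ABCA1 and NR1H3 were added after their values were seen. Python 3.11.15, pandas 2.3.3 and matplotlib 3.10.9 were used.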

Additional observations from a re-analysis of the deposited data

Results flagged for a closer look

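Each of 56 tests set a gene's value on 1 array against the other 4 of its group. By the gap divided by the group's range, 3 values passed the critical value of 0.71 (Dixon's test). Chance gives about 1 in 20, so 3 of 56 is close to the number that chance gives. The tests share the same arrays and are not independent, so this count cannot decide whether chance gave these values. HMGCS1 on RWV 3 was at 1200, with the other RWV arrays at 469.3 to 642.6 (ratio 0.763). LRP8 on RWV 3 was at 1004, with the others at 549.3 to 636 (ratio 0.809). MYLIP on Mono 4 was at 142, with the other Mono arrays at 345.7 to 414 (ratio 0.749). Each of the 3 genes passed the test without that array too.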

How the results depend on the processing

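Under 22 alternatives each of the 12 called genes kept its sign, and ACAT2, HMGCS1 and MVK passed in every one. Leaving out 1 array at a time kept the calls of 11 of the 12, LRP8 being the exception; 8 to 11 of the 28 genes then fell and 3 to 4 rose, and over all genes 2182 to 2812 rose and 2302 to 2831 fell. The replicate block left 4 genes higher and 9 lower: LRP8 was lost (adjusted p = 0.051) and MSMO1 (0.014) and HSD17B7 (0.049) gained, but the numbers were not shown to pair the arrays, with 3 of 5 same-numbered pairs correlating above 0.1 (-0.15 to 0.22) and 3 of 5 RWV arrays correlating best with their own number. Without normalization between arrays, which moved the median of all genes to -0.13, 1037 genes rose and 2518 fell (29.2% of calls higher, against 49% with it), 1 cholesterol gene rose and 10 fell, and the medians were -0.375 for late sterol, -0.235 for SREBP2 control and -0.152 for uptake genes. Within arrays 1 to 3, 1432 genes rose and 1624 fell, and 5 cholesterol genes fell. Within arrays 4 and 5, 528 rose and 528 fell, and 0 cholesterol genes rose and 4 fell; the medians were 0.203 for SREBP2 control and 0.083 for uptake. These sets have fewer arrays. The uptake median was 0.088 with the brightest spot and -0.129 with the dim filter, which drops NPC1L1. The SREBP2 control median was -0.181 without Mono 4 and RWV 3, the arrays that stood apart along the first principal component in an earlier analysis, and -0.152 to 0.12 over single left-out arrays, with -0.152 without Mono 4. Causes of these shifts were not tested. Dim signal limits NPC1L1, and a saturated spot limits MVD.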

Other observations

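Farnesyl diphosphate also feeds the side chain of coenzyme Q, dolichol and the lipid tails of prenylated proteins. Of 10 measured genes of these branches 3 fell in RWV, against 15.4% of all genes, and 1 rose, against 14.8%, at an adjusted p below 0.05 (limma), with a median log2 fold change of -0.01. The 3 that fell belong to coenzyme Q synthesis. PDSS1 and PDSS2, the subunits of the enzyme that builds its side chain, fell by 1.51 ± 0.28 and 0.43 ± 0.12, and COQ2, which joins that chain to the ring, fell by 1.01 ± 0.13. RABGGTA, a subunit of the enzyme that prenylates RAB proteins, rose by 0.39 ± 0.10.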
